A study of Mus musculus with 6 samples.

Results

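The subunits of respiratory complexes II to V were followed as transcripts in 6 RNA-seq libraries of mouse CD4+ T cells. Members were the protein-coding genes named mt-Cytb, Sdha, Sdhb, Sdhc or Sdhd, and those whose symbols start with mt-Co, mt-Atp, Uqcr, Cyc1, Cox4, Cox5, Cox6, Cox7, Cox8 or Atp5. The rule found 54 genes of the 49315 in the files: 4 of complex II, 10 of complex III, 21 of complex IV and 19 of complex V. Of these, 48 are nuclear genes and 6 are encoded by mitochondrial DNA. A member was compared if it reached 10 counts and 2 CPM, a count scaled by library size, in 1 or more libraries, as did 47 members and 12928 genes in all. The 7 members below that level were all nuclear genes of complex IV. The symbol rule also takes in Cox7a2l, which helps respiratory complexes associate into supercomplexes, and Atp5s, a factor related to ATP synthase that is not a core subunit.

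All 6 libraries came from spleen CD4+ T cells of C57BL/6 origin that carry CBir1 TCR Tg, a transgenic T cell receptor that recognises a flagellin of gut bacteria. For 5 libraries, CD44- CD45.1 cells of this kind were placed in CD45.2 mice on day 0, and the hosts were immunised with 50 µg CBir1 flagellin and 1 µg CT on days 1 and 7. The MEP1+Metformin, MEP1+Rapamycin, MEP1+Metformin+Rapamycin and MEP1+CMC hosts then received 3 µg MEP1 on days 28 and 35, and then the named inhibitor or inhibitors with CMC, or CMC alone, by injection over 5 days. The No treatment hosts received neither MEP1 nor an inhibitor in that period. All transferred hosts were challenged with 3 µg MEP1 on day 56, and the donor cells left in the spleen were sorted on day 63. The sixth library, naive control, is labelled as naive CBir1 TCR Tg CD4 cells, for which the labels give no transfer. Each condition had 1 library, and the labels do not say how many mice were behind it. The hosts were C57BL/6 mice with their own T cells, from which the sort separated the donor cells.

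Complex II oxidises succinate in the tricarboxylic acid cycle and passes the electrons to ubiquinone. Complex III hands them on to cytochrome c and complex IV to oxygen, and complex V, the ATP synthase, uses the proton gradient to make ATP. Complexes III, IV and V are assembled from subunits of both genomes, whereas all complex II subunits are nuclear. T cells rely on these complexes in the resting and memory states and enlarge them during activation. Metformin is known as an inhibitor of complex I and rapamycin as an inhibitor of the kinase mTORC1, which promotes translation of many mitochondrial proteins.

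Library totals were 26139000 counts in naive control and 32321936 to 60622310 in the transferred libraries, so counting error was small for most of the 47 members, and widest for mt-Atp8 and Atp5s, whose lowest library held 246 and 158 counts. Loci that collect ribosomal RNA reads held 15.4% of the counts in naive control, 3.13% in MEP1+Rapamycin and 1.00% to 1.28% in the other libraries. Markers of CD4 T cells summed to between 36172 and 55060 scaled CPM in the transferred libraries, against 119895 in naive control. All 10 markers had counts in every library. Most of that sum was Trbc2, at 40748 scaled CPM in No treatment and 109194 in naive control. Over the 10 markers, the median log2 ratio of No treatment to naive control was 0.06, with 6 above 0 and 4 below. Markers of macrophages summed to 348 to 558 scaled CPM in the MEP1 libraries, 2684 in No treatment and 47.1 in naive control, where Cd14 and Marco were at 0 and the other 9 of 11 had counts. Erythroid and platelet markers summed to 55.0 to 103 scaled CPM in the inhibitor libraries, against 356 in MEP1+CMC, 1621 in No treatment and 386 in naive control, with all 9 detected except Slc4a1 in MEP1+Metformin. B cell and plasma cell markers summed to 873 scaled CPM in MEP1+Metformin, 1075 in MEP1+Rapamycin, 1280 in MEP1+Metformin+Rapamycin, 1395 in MEP1+CMC, 1881 in No treatment and 1378 in naive control, with all 9 detected in every library. Xist, transcribed in female cells, stood at 0.218 to 0.532 scaled CPM in the inhibitor libraries, against 257 in MEP1+CMC, 23.0 in No treatment and 42.8 in naive control. The Y-linked genes Ddx3y, Eif2s3y, Uty and Kdm5d ran the other way in MEP1+CMC, at 0 to 0.301 scaled CPM, and stood at 8.05 to 34.2 in No treatment. They stood at 27.0 to 95.9 in the inhibitor libraries and at 0 to 0.374 in naive control. Inhibitor and sex therefore cannot be told apart in any comparison of an inhibitor library with MEP1+CMC. No treatment had both Xist and Y-linked transcripts, so treatment and sex cannot be told apart in its comparisons either. For No treatment, the heading of the deposited counts reads as not challenged, which goes against its label and the protocol.

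Levels below are CPM scaled by trimmed mean of M values (TMM), and a log2 ratio is taken between 2 libraries with a 95% interval that covers counting error only. With 1 library per condition these ratios have no replicate check, and no test applies to them. In bulk RNA, fewer cells of a type and less RNA per cell cannot be told apart.

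Among the proximal promoters of the nuclear members, 34 of 48 were matched in RefSeq (build GRCm38.p6), and the 250 bases before the transcription start were searched on both strands. The letters GCGCATG, of the kind bound by nuclear respiratory factor 1, a known activator of respiratory genes, occurred in 6 of 34 members (17.6%), against 6.27% of 8737 expressed protein-coding genes and 3.32% of all 27025 promoters. The letters CCGGAAG, of the kind bound by ETS-family factors such as GABP, occurred in 8 members (23.5%), against 15.2% of expressed genes and 7.05% of all promoters. AAGATGGC, bound by YY1, was found in 0 members at the start searched, against 2.12% of expressed genes. TATAAA was found in 2 members (5.88%), against 6.11% of expressed genes. The expressed genes had passed the count filter, as had 30 of the 34 members. Among these 30, GCGCATG occurred in 6 (20%), CCGGAAG in 8 (26.7%), AAGATGGC in 0 and TATAAA in 1 (3.33%). Printed here are 3 promoters, for the members of complexes III and V with the lowest metformin ratio and the largest rapamycin ratio, and for a complex IV member with GCGCATG. Capitals mark the CCGGAAG letters in Uqcr11 (chr10:80406831-80407071, minus strand), the same letters on the other strand in Atp5e (chr2:174464106-174464351, minus strand) and overlapping matches of GCGCATG on both strands in Cox6a1 (chr5:115348982-115349208, minus strand). Only the bases outside annotated exons are shown. Cox6a1 also counts among the members with CCGGAAG, by a match in the 250 bases searched that is outside the stretch shown.
Uqcr11: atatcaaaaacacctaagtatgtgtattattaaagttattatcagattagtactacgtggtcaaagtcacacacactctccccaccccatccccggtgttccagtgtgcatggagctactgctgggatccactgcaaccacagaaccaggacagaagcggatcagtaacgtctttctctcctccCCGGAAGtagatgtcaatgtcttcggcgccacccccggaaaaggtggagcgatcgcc
Atp5e: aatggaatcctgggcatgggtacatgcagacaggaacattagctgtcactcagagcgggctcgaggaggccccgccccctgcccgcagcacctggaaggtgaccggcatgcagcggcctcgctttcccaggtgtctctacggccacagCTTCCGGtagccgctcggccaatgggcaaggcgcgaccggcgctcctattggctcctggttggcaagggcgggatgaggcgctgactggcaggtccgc
Cox6a1: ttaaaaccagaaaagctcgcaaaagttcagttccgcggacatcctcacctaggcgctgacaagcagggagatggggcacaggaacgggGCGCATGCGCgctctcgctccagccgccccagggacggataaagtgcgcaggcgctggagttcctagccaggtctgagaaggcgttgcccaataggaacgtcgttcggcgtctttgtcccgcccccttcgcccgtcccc

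The 54 members together held 1.65% of all counts in MEP1+Metformin, 1.99% in MEP1+Rapamycin, 1.65% in MEP1+Metformin+Rapamycin, 1.89% in MEP1+CMC, 2.31% in No treatment and 1.78% in naive control. The lowest shares were thus those of the 2 libraries with metformin, and the highest was that of No treatment. Per length, in TMM-scaled FPKM (CPM divided by gene length in kilobases), mt-Co1 was the most abundant member at 3354 to 5978, and mt-Cytb followed at 1860 to 3154. The most abundant nuclear members were small subunits of complex IV, namely Cox8a at 347 to 818 FPKM, Cox6a1 at 308 to 763 and Cox6b1 at 224 to 521. This order depends on the length used, since with principal transcript lengths Cox4i1 had 375 to 1029, Atp5b 463 to 780 and Atp5h 350 to 756, all above Cox6b1 at 257 to 596, while Cox6a1 had 378 to 938 and Cox8a 344 to 811. Complex II subunits were lower, from Sdhc at 19.5 to 38.6 FPKM to Sdha at 99.9 to 137. Atp5s was the lowest member that was compared, at 3.96 to 7.10 FPKM. Among the 41 nuclear members compared, the naive control library was the highest for 34 and No treatment for 6, while MEP1+Metformin was the lowest for 31 and MEP1+Metformin+Rapamycin for 7.

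In MEP1+Metformin cells, all 47 members stood below their level in MEP1+CMC cells. The interval lay below 0 for 45 members (the exceptions were Atp5s and mt-Atp8), where 36.2% of all genes tested lay below 0 beyond it. The median log2 ratio was -0.33 over the members, against -0.01 over all genes. Complex III had a nuclear median of -0.36, complex IV of -0.42 and complex V of -0.32, while complex II had -0.13. No member reached a 2-fold difference, which 2.76% of genes did in the lower direction. At 1.5-fold, 2 members were lower, Uqcr11 and Cox8a, against 6.87% of genes. Markers of cell types differed in the same comparison. The 10 CD4 T cell markers had a median log2 ratio of -0.32 with 9 of 10 below 0, the 9 B cell and plasma cell markers of -0.79 with 8 below 0, and the 7 erythroid and platelet markers compared of -2.77 with 6 below 0. Their part in the members' ratios was not tested.

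Uqcr11, a small accessory subunit of complex III, had 94.7 CPM in MEP1+Metformin, 180.2 in MEP1+Rapamycin, 110.1 in MEP1+Metformin+Rapamycin, 163 in MEP1+CMC, 187 in No treatment and 222 in naive control. Both libraries with metformin were below the other 4, and the log2 ratio of MEP1+Metformin to MEP1+CMC was -0.78 (-0.83 to -0.73), the lowest of the 47. Cox8a, a small nuclear subunit of complex IV, had 189 CPM in MEP1+Metformin, 326 in MEP1+Rapamycin, 218 in MEP1+Metformin+Rapamycin, 293 in MEP1+CMC, 351 in No treatment and 446 in naive control. Its log2 ratio to MEP1+CMC in MEP1+Metformin was -0.63 (-0.67 to -0.60), with the same order of libraries. At the other end, Sdha, the flavoprotein that carries the catalytic site of complex II, had 476 CPM in MEP1+Metformin, 394 in MEP1+Rapamycin, 473 in MEP1+Metformin+Rapamycin, 488 in MEP1+CMC, 533 in No treatment and 388 in naive control. Its log2 ratio of MEP1+Metformin to MEP1+CMC was -0.04 (-0.06 to -0.01), the highest of the 47. Sdhb, the iron-sulfur partner of Sdha, had the lowest ratio of complex II at -0.35 (-0.39 to -0.30). Within a library, Sdha counts were 3.00 times those of Sdhb in MEP1+Metformin, 2.03 in MEP1+Rapamycin, 2.76 in MEP1+Metformin+Rapamycin, 2.42 in MEP1+CMC, 2.18 in No treatment and 1.37 in naive control. That ratio needs no scaling between libraries, and it was highest in the 2 libraries with metformin.

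In complex V, the lowest metformin ratio was that of Atp5k, the e subunit at the membrane end, at -0.55 (-0.65 to -0.45). Atp5a1 and Atp5b, which form the catalytic head, had -0.11 and -0.16. Atp5s had the highest nuclear ratio of that complex at -0.10 (-0.28 to 0.07), an interval that includes no change. Among complex III core proteins, Uqcrc2 had -0.16 and Uqcrc1 -0.29, and the electron carrier Cyc1 had -0.25. In complex IV, Cox7a2l had the highest nuclear ratio at -0.14 (-0.20 to -0.09).

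**Figure D1:**
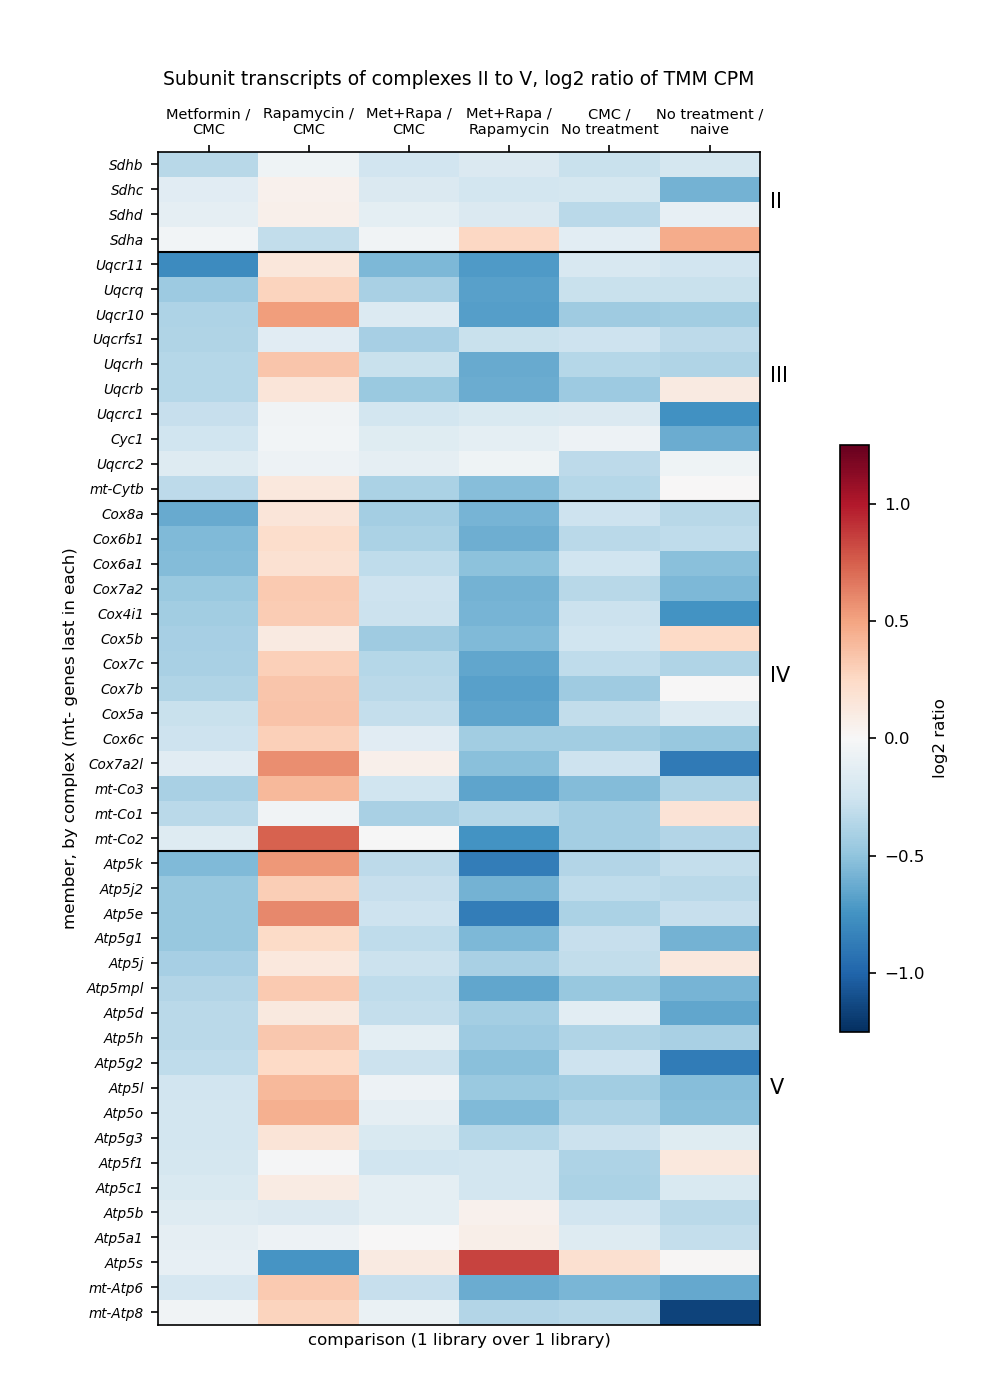
Log2 ratios of TMM CPM between pairs of libraries (columns) for the 47 members compared (rows, grouped by complex), blue for lower and red for higher in the first-named library. The metformin column is blue in all 47 rows with a median of -0.33, and the rapamycin column is red in 36 rows with a median of 0.22.

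In MEP1+Rapamycin cells, 36 of 47 members stood above MEP1+CMC, 35 with an interval above 0, where 40.1% of genes tested did so. The median log2 ratio was 0.22 over the members and 0.03 over all genes. All 11 nuclear members of complex IV were above 0 with a median of 0.30, complex V had a nuclear median of 0.24, complex III of 0.15 and complex II of 0.00. At 1.5-fold, Atp5e and mt-Co2 were higher, against 16% of genes, and Atp5s was lower, against 9.89%. No member reached 2-fold in either direction, where 7.4% of genes were higher and 4.49% lower. Here the CD4 T cell markers had a median of -0.22, the B cell and plasma cell markers of -0.10 and the erythroid and platelet markers of -1.77, and their part was not tested.

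Atp5e, the epsilon subunit of the ATP synthase stalk, had 80.3 CPM in MEP1+Metformin, 169 in MEP1+Rapamycin, 93.1 in MEP1+Metformin+Rapamycin, 112 in MEP1+CMC, 147 in No treatment and 179.8 in naive control. MEP1+Rapamycin was the highest of the 5 transferred libraries, with a log2 ratio to MEP1+CMC of 0.60 (0.55 to 0.65). Uqcr10, a small complex III subunit, followed the same order of the 4 MEP1 libraries, at 78.3 CPM in MEP1+Metformin, 146 in MEP1+Rapamycin, 90.6 in MEP1+Metformin+Rapamycin and 102 in MEP1+CMC, and its rapamycin ratio was the highest of complex III at 0.52 (0.47 to 0.57). Cox7a2l had the highest nuclear ratio of complex IV at 0.58 (0.53 to 0.63), and Cox5b, a zinc-binding subunit, the lowest at 0.11. Sdha went the other way with -0.31 (-0.34 to -0.28), and Uqcrfs1, the Rieske iron-sulfur protein, had the lowest ratio of complex III at -0.14. In complex II, Sdhd, a membrane anchor, had the highest ratio at 0.06.

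Atp5s, the lone member lower by 1.5-fold in MEP1+Rapamycin, had 9.09 CPM in MEP1+Metformin, 5.88 in MEP1+Rapamycin, 10.5 in MEP1+Metformin+Rapamycin, 9.77 in MEP1+CMC, 8.52 in No treatment and 8.44 in naive control, from 158 to 597 counts. Its log2 ratio of MEP1+Rapamycin to MEP1+CMC was -0.73 (-0.97 to -0.50), the lowest of all 47 members, and its ratio of MEP1+Metformin+Rapamycin to MEP1+Rapamycin was 0.84 (0.61 to 1.08), the highest.

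With both inhibitors, 44 of 47 members stood below MEP1+CMC, 41 with an interval below 0, where 35.7% of genes tested did so, and 1 with an interval above 0, where 34.8% did so. The median was -0.26 over the members and 0.00 over all genes. The lowest ratios of complexes III, IV and V were those of Uqcr11 at -0.56, Cox5b at -0.44 and Atp5k at -0.33, and Atp5a1 at 0.00, Cox7a2l at 0.06 and Atp5s at 0.11 were not below 0. No member reached 1.5-fold in this comparison, while 7.82% of genes were lower by that much and 8.47% higher. The CD4 T cell markers had a median of -0.31 with all 10 below 0, the erythroid and platelet markers of -2.55 and the B cell and plasma cell markers of 1.18, and their part was not tested. Against MEP1+Metformin, the MEP1+Metformin+Rapamycin library differed little, with a median of 0.08 over the members and 0.01 over all genes. Here 27 members had an interval above 0, against 28.5% of genes, and 4 had one below 0, against 26.8%. The highest ratio was that of Atp5k at 0.22 and the lowest that of Uqcrb, a ubiquinone-binding subunit of complex III, at -0.11.

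MEP1+Metformin+Rapamycin stood below MEP1+Rapamycin for most members, with a median log2 ratio of -0.52 over the members and -0.03 over all genes. The interval lay below 0 for 42 members, against 39.1% of genes, and above 0 for 4, against 34.9%. At 1.5-fold, 17 members were lower, against 14.3% of genes, and 1 was higher, Atp5s, against 7.37%. The 17 were 5 of complex III, 7 of complex IV and 5 of complex V, counted over both genomes. Atp5k had 27.5 CPM in MEP1+Metformin+Rapamycin and 50.2 CPM in MEP1+Rapamycin, a log2 ratio of -0.87 (-0.97 to -0.77). Atp5e had a ratio of -0.86 (-0.92 to -0.81), Uqcr11 of -0.71 and Cox7b, a small complex IV subunit, of -0.68. Sdha was above 0 at 0.26 (0.23 to 0.29), as were Atp5a1 at 0.07 and Atp5b at 0.06. The comparisons with MEP1+CMC share that library, and this one shares its libraries with them, so their values are given side by side and not as independent repeats.

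In the inhibitor comparisons, the size of a nuclear member's ratio went with the length of its coding sequence. Over the 41 nuclear members, Spearman's rho between coding length and log2 ratio was 0.69 for MEP1+Metformin against MEP1+CMC, where it was 0.42 over 10954 protein-coding genes. It was -0.69 for MEP1+Rapamycin against MEP1+CMC, where over the genes it was -0.04, and 0.85 for MEP1+Metformin+Rapamycin against MEP1+Rapamycin, where over the genes it was 0.31. It was 0.54 for MEP1+Metformin+Rapamycin against MEP1+CMC, where over the genes it was 0.33. Against MEP1+Metformin, that library had -0.41, and -0.13 over the genes. For MEP1+CMC against No treatment it was 0.49, and 0.34 over the genes. For No treatment against naive control it was 0.07, and 0.02 over the genes, and short members had a median of -0.35 and long ones -0.31. The members share libraries and depth, so these values describe the pattern only. The 21 nuclear members with at most 408 coding bases had a median of -0.42 in MEP1+Metformin against MEP1+CMC, and the 20 longer ones -0.23. Genes of the same short range, 650 in all, had a median of -0.28 there, and the 10304 longer genes 0.01. In MEP1+Rapamycin against MEP1+CMC, the short members had 0.30 and the long ones 0.02, while short genes had 0.21 and long genes -0.03. With the length trend of all genes taken out, the member median was -0.16 for metformin, 0.05 for rapamycin, and -0.19 for MEP1+Metformin+Rapamycin against MEP1+Rapamycin. The part of RNA length or integrity in these ratios was not tested.

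**Figure D2:**
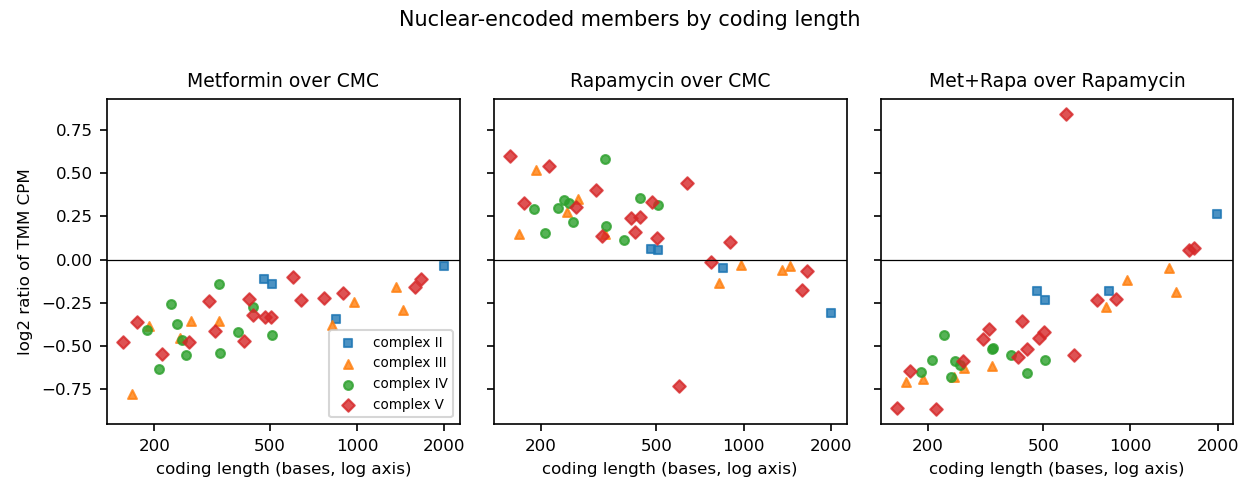
Log2 ratio of TMM CPM (vertical) against coding length in bases (horizontal, log axis) for the 41 nuclear members in 3 comparisons, with 1 point per gene and marker shapes by complex. Short subunits lie lowest for metformin (rho 0.69) and highest for rapamycin (rho -0.69), and the lone point well off the trend in the last 2 panels is Atp5s.

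Long and short subunits of the same complex could be set against each other inside a library. Atp5b counts were 11.2 times those of Atp5e in MEP1+Metformin, 5.24 times in MEP1+Rapamycin, 9.91 times in MEP1+Metformin+Rapamycin, 8.97 times in MEP1+CMC, 8.05 times in No treatment and 8.32 times in naive control. Atp5a1 counts were 23.0 times those of Atp5k in MEP1+Metformin, 11.2 times in MEP1+Rapamycin, 21.4 times in MEP1+Metformin+Rapamycin, 17.0 times in MEP1+CMC, 14.7 times in No treatment and 14.7 times in naive control. Both ratios were lowest in MEP1+Rapamycin and highest in MEP1+Metformin. Naive control, where loci that collect ribosomal RNA reads held 15.4% of counts, lay close to No treatment in both. MEP1+Rapamycin, which was lowest in both, had the next highest such share at 3.13%. The part of ribosomal RNA share in these ratios was not tested.

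**Figure D3:**
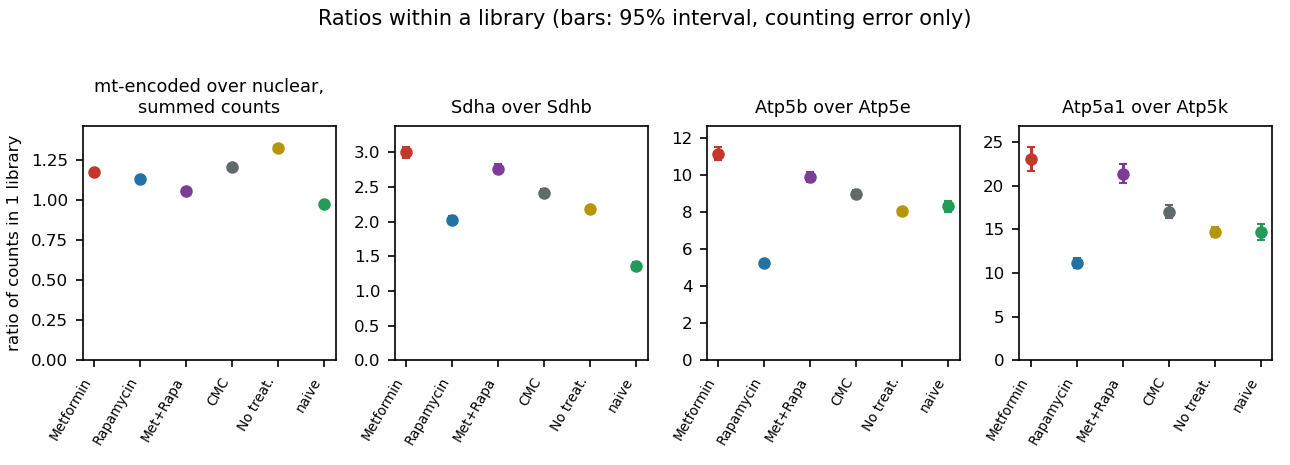
Ratios of counts inside each library (vertical, starting at 0), with 1 point per library and bars for the 95% counting interval, hidden where smaller than the point. Atp5b over Atp5e runs between 5.24 in MEP1+Rapamycin and 11.2 in MEP1+Metformin.

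The 6 mitochondrially encoded members split by abundance and by how far their reads can be told from copies elsewhere. mt-Co1, the catalytic subunit of complex IV, had 5432 CPM in MEP1+Metformin, 6657 in MEP1+Rapamycin, 5183 in MEP1+Metformin+Rapamycin, 6858 in MEP1+CMC, 9236 in No treatment and 8181 in naive control. mt-Cytb, the cytochrome b of complex III, had 2243 CPM in MEP1+Metformin, 3069 in MEP1+Rapamycin, 2128 in MEP1+Metformin+Rapamycin, 2809 in MEP1+CMC, 3608 in No treatment and 3601 in naive control. Both were lowest in the 2 libraries with metformin, with log2 ratios of MEP1+Metformin to MEP1+CMC of -0.34 for mt-Co1 and -0.32 for mt-Cytb.

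mt-Co3, a core subunit of complex IV, had 88.9 CPM in MEP1+Metformin, 156 in MEP1+Rapamycin, 98.9 in MEP1+Metformin+Rapamycin, 118 in MEP1+CMC, 172 in No treatment and 222 in naive control. mt-Co2, which receives the electrons from cytochrome c, had 38.5 CPM in MEP1+Metformin, 71.8 in MEP1+Rapamycin, 42.9 in MEP1+Metformin+Rapamycin, 43.0 in MEP1+CMC, 57.8 in No treatment and 74.6 in naive control. Its ratio of MEP1+Rapamycin to MEP1+CMC was the highest of all 47 members at 0.74 (0.66 to 0.82), whereas mt-Co1 had -0.04 there.

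mt-Atp6, the proton channel subunit of complex V, had 62.4 CPM in MEP1+Metformin, 90.7 in MEP1+Rapamycin, 59.1 in MEP1+Metformin+Rapamycin, 72.2 in MEP1+CMC, 108 in No treatment and 168 in naive control. mt-Atp8, a small membrane subunit of complex V, had 5.82 CPM in MEP1+Metformin, 7.27 in MEP1+Rapamycin, 5.65 in MEP1+Metformin+Rapamycin, 5.99 in MEP1+CMC, 7.64 in No treatment and 17.0 in naive control. For both, naive control was above the 5 transferred libraries.

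**Figure D4:**
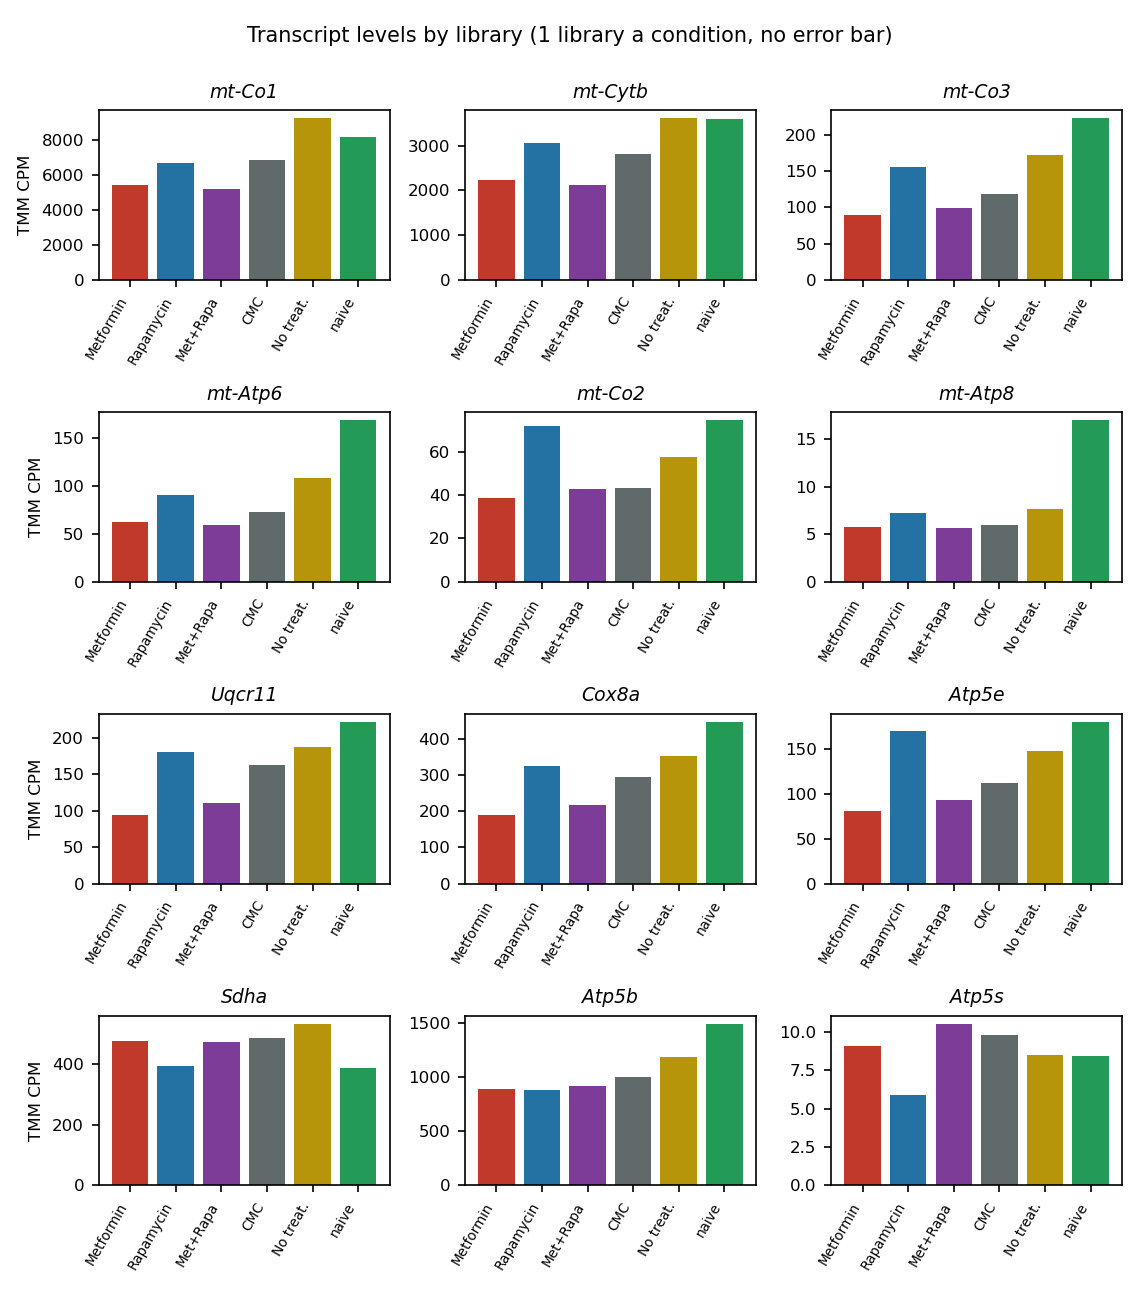
TMM CPM (vertical, from 0) by library (horizontal) for the 6 mitochondrially encoded members and for 6 nuclear members, with 1 bar per library and no error bar. Uqcr11, Cox8a and Atp5e are lowest in the 2 libraries with metformin, Sdha is lowest in naive control and MEP1+Rapamycin, and mt-Atp8 reaches 17.0 in naive control against 5.65 to 7.64 in the transferred libraries.

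Nuclear copies of mitochondrial DNA carry near-identical sequence to some of these genes. Of the 50-base words in the transcript, 100% for mt-Co2, 99.9% for mt-Co3, 99.5% for mt-Atp6 and 51.1% for mt-Co1 also occur in another annotated gene, against 0% for mt-Cytb and mt-Atp8. The copies, on chromosomes 1, 2 and 11, held 60.1% to 65.7% of the joint counts for mt-Co2, 62.7% to 64.6% for mt-Co3 and 51.3% to 55.0% for mt-Atp6, against 3.41% to 5.14% for mt-Co1. Levels of mt-Co2, mt-Co3 and mt-Atp6 relative to mt-Co1 are therefore uncertain, and no source used here says how reads with several places were counted. With the copies added, the ratio of MEP1+Rapamycin to MEP1+CMC was 0.71 for mt-Co2 and 0.45 for mt-Co3, and that of MEP1+Metformin to MEP1+CMC was -0.26 for mt-Co2, against -0.16 without them. The strand setting is likewise not given, and mt-Atp8 and mt-Atp6 overlap on the genome. Only annotated transcripts were searched, so the 0% for mt-Cytb and mt-Atp8 does not cover copies outside annotated genes. mt-Atp8 lies between mt-Co2 and mt-Atp6, which both have an annotated copy on chromosome 1. Whether mt-Atp8 has a copy there was not tested. Among nuclear members, word sharing was 100% for Atp5g2, 84.8% for Atp5l, 66.6% for Atp5h, 66.0% for Atp5g1, 53.0% for Cox7c, 50.3% for Atp5o and 43.4% for Uqcrb, so their levels are uncertain in the same way.

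Summed over members, mitochondrially encoded counts were 1.18 times nuclear counts in MEP1+Metformin, 1.13 times in MEP1+Rapamycin, 1.06 times in MEP1+Metformin+Rapamycin, 1.20 times in MEP1+CMC, 1.33 times in No treatment and 0.977 times in naive control. mt-Co1 counts were 3.60 times those of the nuclear complex IV members in MEP1+Metformin, 2.69 times in MEP1+Rapamycin, 3.11 times in MEP1+Metformin+Rapamycin, 3.34 times in MEP1+CMC, 3.65 times in No treatment and 2.36 times in naive control. mt-Cytb counts were 1.82 to 2.10 times those of the nuclear complex III members in the transferred libraries, against 1.57 times in naive control. Both balances were lower in naive control than in the 5 transferred libraries. The complex V balance ran the other way, with mt-Atp6 and mt-Atp8 at 0.0187 to 0.0246 times the nuclear complex V members in the transferred libraries, against 0.0316 times in naive control.

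The MEP1+CMC library stood below No treatment for 46 of 47 members beyond the counting interval, where 37.2% of genes tested did so, and above it for 1, Atp5s, where 38.4% did so. The median was -0.32 over the members and 0.01 over all genes, and the nuclear medians ran from -0.25 in complex II to -0.32 in complex V. Among nuclear members the lowest ratios were those of Atp5mpl, a small ATP synthase membrane subunit, at -0.47 and Uqcrb at -0.46. Cyc1 at -0.06 and Sdha at -0.13 had the highest ratios of complexes III and II. In complex IV the nuclear range was from -0.44 for Cox7b to -0.25 for Cox5b, and the 3 mitochondrially encoded members had -0.43 for mt-Co1, -0.42 for mt-Co2 and -0.55 for mt-Co3. mt-Atp6 was the lowest of all at -0.58 (-0.63 to -0.52). No member reached 1.5-fold, which 6.85% of genes did in the lower direction. Markers of macrophages and red cells were higher in No treatment, at the sums given above. Xist was higher in MEP1+CMC (log2 ratio 3.48) and Ddx3y was lower (-6.83). The part of these differences in the result was not tested.

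Set against No treatment in place of MEP1+CMC, a comparison added after seeing the data, MEP1+Metformin had a member median of -0.69, MEP1+Rapamycin of -0.11 and MEP1+Metformin+Rapamycin of -0.57. The interval lay below 0 for 46 of 47 members in MEP1+Metformin, against 40.4% of genes, for 30 in MEP1+Rapamycin, against 39.3%, and for 46 in MEP1+Metformin+Rapamycin, against 40.2%. Lower by 1.5-fold were 32 of 47 members in MEP1+Metformin, against 12.9% of genes, and 23 in MEP1+Metformin+Rapamycin, against 11% of genes, and 0 in MEP1+Rapamycin, against 11.3%. Uqcr11 had the lowest ratio in MEP1+Metformin at -0.98 (-1.03 to -0.93), and Uqcrb in MEP1+Metformin+Rapamycin at -0.92. These pairs of libraries also differ in Xist and Y-linked transcripts, at the levels given above.

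No treatment cells stood below naive control for 37 of 47 members beyond the counting interval, where 37.6% of genes did so, and above it for 6, where 39.9% did so. The median was -0.34 over the members and 0.03 over all genes. This direction depends on the scaling, since library totals give 0.14 over the members and 0.50 over all genes. No treatment also held Y-linked transcripts that naive control all but lacked, and the part of sex was not tested. mt-Atp8 was lower by over 2-fold, at -1.16 (-1.37 to -0.95), and was the only member to pass that size, which 8.21% of genes did in the lower direction. At 1.5-fold, 10 members were lower, against 17.7% of genes, and 0 were higher, against 22.7%. Cox7a2l at -0.88 and Atp5g2, a gene for the c subunit of the ATP synthase ring, at -0.87 were the lowest nuclear members. Uqcrc1 at -0.76 and Sdhc, a membrane anchor, at -0.59 were the lowest of complexes III and II. The highest nuclear ratios of complexes II to V were those of Sdha at 0.46 (0.42 to 0.50), Uqcrb at 0.11, Cox5b at 0.25 and Atp5j, a stalk subunit, at 0.14.

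Models over several libraries gave the tests that the design allows, with edgeR's quasi-likelihood test and Benjamini-Hochberg adjustment over 12928 genes. In the 5 transferred libraries against naive control, 7 of 47 members fell and 0 rose, against 5.9% of genes that fell and 4.51% that rose. The 7 were 2 of complex III, Uqcrc1 (log2 fold change -1.01, SE 0.21, adjusted p = 0.0230) and Cyc1 (-0.75, SE 0.18, adjusted p = 0.0347), 1 of complex II, Sdhc (-0.81, SE 0.19, adjusted p = 0.0324), 1 of complex IV, Cox7a2l (-0.96, SE 0.25, adjusted p = 0.0446), and 3 of complex V. Those 3 were Atp5g2 (-1.13, SE 0.24, adjusted p = 0.0239), mt-Atp8 (-1.40, SE 0.30, adjusted p = 0.0253) and mt-Atp6 (-1.10, SE 0.30, adjusted p = 0.0499).

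The levels behind these calls are the values that the model used, so they add no support to them. Uqcrc1 had 289.7 CPM in MEP1+Metformin, 345 in MEP1+Rapamycin, 304 in MEP1+Metformin+Rapamycin, 355 in MEP1+CMC and 403 in No treatment, against 683 in naive control. Atp5g2 had 52.8 CPM in MEP1+Metformin, 78.3 in MEP1+Rapamycin, 54.6 in MEP1+Metformin+Rapamycin, 65.9 in MEP1+CMC and 79.0 in No treatment, against 144 in naive control. Cox7a2l had 107 CPM in MEP1+Metformin, 177 in MEP1+Rapamycin, 123 in MEP1+Metformin+Rapamycin, 118 in MEP1+CMC and 141 in No treatment, against 259 in naive control. Naive control was the highest of the 6 libraries for each of the 7. It was also the highest for 34 of the 41 nuclear members compared and 4 of the 6 mitochondrially encoded ones, called or not. Cyc1 had 144 to 177 CPM in the transferred libraries, against 272 in naive control, and Sdhc had 63.2 to 83.5 CPM, against 125. Sdha had a log2 fold change of 0.29 (SE 0.22) that did not pass (adjusted p = 0.407). The naive library is a lone sample that the model takes to vary like the transferred ones. It differs from them in ribosomal RNA share and, apart from MEP1+CMC, in Y-linked transcripts. Handling, sex and cell state therefore cannot be told apart. With library totals as the scaling, which put the median of all genes at 0.66, 0 members fell and 1, Sdha, rose at 0.86 on the log2 scale. Without MEP1+CMC or without MEP1+Metformin+Rapamycin 0 members were called, without MEP1+Metformin 2, and without No treatment 21.

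The other models called no member. In the 4 MEP1 libraries against No treatment, 0 of 47 members passed edgeR's quasi-likelihood test, where 0.99% of genes fell and 0.364% rose, and 7 were lower at an unadjusted p under 0.05, against 5.86% of genes. DESeq2's Wald test also called 0 there. For the metformin term over the 4 MEP1 libraries, 0 of 47 members passed, where 0.101% of genes fell and 0.0232% rose, and 30 were lower at an unadjusted p under 0.05, against 6.46% of genes. Uqcr11 had the smallest adjusted p of these (log2 fold change -0.75, SE 0.15, adjusted p = 0.126 by edgeR's quasi-likelihood test). DESeq2's Wald test called 4 of 47 members lower for this term, where it called 25 of 12928 genes lower. For the rapamycin term, 0 members passed, where 0.0696% of genes rose and 0.162% fell, and 5 were higher at an unadjusted p under 0.05, against 3.65% of genes. These were Atp5e, Atp5k, Uqcr10, Cox7a2l and mt-Co2, and DESeq2's Wald test called 0. Each of these 2 terms rests on 2 libraries with and 2 without the inhibitor and on 1 residual degree of freedom, and MEP1+CMC is the only one of the 4 with female transcripts.

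Departure from additivity was taken as the log2 ratio for metformin in the presence of rapamycin minus that in its absence. Its median was -0.12 over the members, with 34 of 47 (72.3%) below 0, against -0.02 over 12879 genes with counts in all 4 MEP1 libraries, of which 51.9% were below 0. All 6 mitochondrially encoded members were below 0, with a median of -0.29 and the lowest value, -0.58 (-0.70 to -0.46), for mt-Co2. Among nuclear members Atp5e had -0.39 and Atp5s 0.95, while Sdha had 0.30 and Atp5b 0.22.

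Forms of a subunit that are used in muscle, lung or testis were close to absent. Cox4i2, the lung form of Cox4i1, had 0 to 8 counts, against 14064 to 27576 counts for Cox4i1. Cox8b, a muscle form, had 0 to 6 counts, Cox7b2, a testis form, 0 to 3 and Cox8c 0 in all 6 libraries. A count of 0 allows a level of up to 3 counts, and such limits cover counting error only. Cox6b2, a testis form, had 4 to 17 counts and Cox7a1, a muscle form, 1 to 23. Cox6a2, the muscle form of Cox6a1, was the most frequent of them, with 13 counts in MEP1+Metformin, 52 in MEP1+Rapamycin, 15 in MEP1+Metformin+Rapamycin, 44 in MEP1+CMC, 51 in No treatment and 2 in naive control. Its share of the Cox6a1 and Cox6a2 sum, per length, was 0.123% in MEP1+Metformin, 0.439% in MEP1+Rapamycin, 0.109% in MEP1+Metformin+Rapamycin, 0.241% in MEP1+CMC, 0.233% in No treatment and 0.0206% in naive control. The log2 ratio of MEP1+Metformin+Rapamycin to MEP1+Rapamycin was -2.54 (-3.47 to -1.69), and Cox6a2 is outside the 47 members compared and shares 10.3% of its exon bases with Itgad. Among the 3 genes for the identical c subunit, Atp5g2 held 20.2% to 21.6% of the per-length sum in the transferred libraries, against 28.5% in naive control, and Atp5g3 held 62.3% to 66.1%, against 53.4%. With principal transcript lengths, Atp5g3 held 46.9% to 51.5% in the transferred libraries and 38.9% in naive control.

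Other genes of the same pathway were described from lists. The 36 nuclear subunits of complex I, which feeds electrons from NADH into the chain, had a median log2 ratio of -0.41 for MEP1+Metformin against MEP1+CMC, 0.23 for MEP1+Rapamycin against MEP1+CMC and -0.53 for MEP1+Metformin+Rapamycin against MEP1+Rapamycin. In the 5 transferred libraries against naive control, 4 of the 36 fell by edgeR's quasi-likelihood test and 0 rose, where 5.9% of all genes fell and 4.51% rose, which is also the background for the lists that follow, the 3 lowest being Ndufb11 (-1.29), Ndufa6 (-1.20) and Ndufb4 (-1.15) on the log2 scale. The 7 mitochondrially encoded complex I subunits had medians of -0.65 for MEP1+Metformin against MEP1+CMC and -0.12 for MEP1+Rapamycin against MEP1+CMC, and 0 passed a model. At 2-fold, mt-Nd3 at -1.16 and mt-Nd4l at -1.39 were lower in MEP1+Metformin than in MEP1+CMC, as were 2.76% of all genes. In MEP1+Rapamycin mt-Nd4l was lower at -1.19, as were 4.49% of genes. In MEP1+Metformin+Rapamycin mt-Nd2 at -1.03, mt-Nd3 at -1.33 and mt-Nd4l at -1.11 were lower, as were 471 of 12928 genes. mt-Nd4l was near the filter of 2 CPM, at 6.14 CPM in MEP1+CMC and 2.34 to 2.84 in the inhibitor libraries. Word sharing with nuclear copies was not examined for complex I subunits. Against MEP1+Rapamycin, mt-Nd6 was lower in MEP1+Metformin+Rapamycin at -1.02. The 31 assembly factors compared had a median of -0.21 for metformin and 0.21 for rapamycin, each against MEP1+CMC, and 1 fell in the transferred libraries, Cox10 (-0.78), which makes the heme of complex IV. The 14 enzymes of the tricarboxylic acid cycle had -0.07 and -0.15 in those 2 comparisons, with Idh2 (-0.996) the 1 that fell in the transferred libraries. The 15 genes of mitochondrial transcription and biogenesis had 0.09 and -0.09, and 2 fell in the transferred libraries, the mitochondrial RNA polymerase Polrmt (-0.79) and the nuclear receptor Esrra (-0.95). The 8 genes for cytochrome c, the ATP and phosphate carriers and the ATP synthase inhibitor had -0.10 and 0.09, and 0 passed a model.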

How the data were processed

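RNA was prepared from sorted cells with an ultra-low-input library protocol, per the labels' protocols. The submitters' processing notes name Trimmomatic 0.36, featureCounts, Subread 1.5.2 and STAR 2.5.2b, and the build GRCm38, without settings. The authors deposited whole-number read counts per gene, 1 library per condition. The 49315 gene IDs were named from GENCODE M21, which matched 49056 and left 259 without a symbol. Members and lists were chosen with earlier results of these data known.

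Genes with at least 2 CPM and 10 counts in at least 1 library were kept (12928), and TMM factors (edgeR 4.0.16, R 4.3.3) were computed on them. Pairs of libraries were compared by log2 ratios of TMM CPM with exact 95% Clopper-Pearson intervals of the counts, which cover counting error only. A member passed the size rule at 2-fold with an interval that leaves out no change. Counts of 0 took a floor of 3 counts. Models used edgeR's quasi-likelihood test with Benjamini-Hochberg adjustment at 0.05. On data simulated over the 12928 genes with 200 changed 4-fold, the model of the transferred libraries against naive control recovered 70.5%, the MEP1 model 84.0%, the metformin term 79.0% and the rapamycin term 89.5%. Of the genes called there, 0.704%, 6.67%, 0% and 5.79% in that order had not been changed. No member reached 2-fold in an inhibitor comparison, so these rates do not cover differences of the members' size. The labels tie no library to separate animals, so the p-values rest on the spread among libraries of different treatments, which may be technical in part.

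Per-library values were given for the mitochondrially encoded members, for the extreme nuclear members of each complex and for those called, and the others by range and count. Alternatives to the scaling were DESeq2 1.42.0 size factors, library totals and TMM without mitochondrial and ribosomal loci. Others were no or a stricter filter of 20 CPM, a 1.5-fold size and leaving out each library. DESeq2's Wald test and an older quasi-likelihood fit were also used. The length trend removed was that of the ratios of all genes with summed exon length. Adding nuclear copies, No treatment as the comparator and principal transcript lengths were chosen after seeing the data. Promoters came from RefSeq tables of GRCm38.p6, and 14 nuclear members had none. One start per gene was searched.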

Additional observations from a re-analysis of the deposited data

Results flagged for a closer look

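For 9 of 47 members (19.1%) the effect of 1 inhibitor pointed one way in the absence of the other inhibitor and the opposite way in its presence, with both counting intervals off 0, where 28.2% of 12879 genes with counts in all 4 MEP1 libraries did so. By sign alone, 16 members (34.0%) did so, against 60.5% of genes. Each effect is a log2 ratio between 2 single libraries, and the difference between the 2 ratios was not tested. For rapamycin, Sdhb had 0.11 with metformin and -0.05 without it, Atp5b 0.042 and -0.18, Uqcrc1 0.068 and -0.04, Atp5s 0.21 and -0.73, and Atp5a1 0.11 and -0.07. The reverse order was seen in Uqcrb, at -0.11 with metformin and 0.15 without it, mt-Atp6, at -0.079 and 0.33, and mt-Cytb, at -0.076 and 0.13. With its nuclear copy added, mt-Atp6 had -0.039 (-0.087 to 0.0094) with metformin, an interval that includes no change. Its place among the 9 thus rests on counting it without that copy. For metformin, Atp5b had 0.058 with rapamycin and -0.16 without it, Sdha 0.26 and -0.04, and Atp5a1 0.069 and -0.11.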

How the results depend on the processing

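No paired analysis was possible because each condition had 1 library and the labels give no shared replicate numbers. Over the members of both genomes together, the median ratio kept its direction under nearly every alternative. The exception was library totals in No treatment against naive control, with 0.14 in place of -0.34. Library totals also gave -0.21 for MEP1+Metformin against MEP1+CMC, -0.15 for MEP1+Metformin+Rapamycin against MEP1+CMC, -0.41 for MEP1+Metformin+Rapamycin against MEP1+Rapamycin and -0.25 for MEP1+CMC against No treatment. With the length trend removed, those medians were -0.16, -0.16, -0.19 and -0.20, and the others were 0.049 for MEP1+Rapamycin against MEP1+CMC, 0.029 for MEP1+Metformin+Rapamycin against MEP1+Metformin and -0.19 for No treatment against naive control. For the 6 mitochondrially encoded members alone, removal of the length trend gave -0.085 for MEP1+Rapamycin against MEP1+CMC, in place of 0.30. It gave -0.027 for MEP1+Metformin against MEP1+CMC, in place of -0.27. With no filter, the member median was 0.072 for MEP1+Rapamycin against MEP1+CMC, against 0.66 over all genes. It was -0.39 for MEP1+Metformin+Rapamycin against MEP1+Rapamycin, against -0.59 over all genes. For No treatment against naive control it was -0.28, against -1.22 over all genes. The stricter filter gave a member median of 0.27 for MEP1+Rapamycin against MEP1+CMC.

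In No treatment against naive control, the 1 member past 2-fold became 0 with library totals, with the length trend removed and under the stricter filter. It became 3 with no filter, where 3034 of 38321 genes were higher and 1867 lower, and 10 at 1.5-fold. With no filter, low-count tissue forms enter. Then 1 member passed in MEP1+CMC against No treatment, where 3497 of 38321 genes were higher and 1865 lower by 2-fold. In MEP1+Metformin against MEP1+CMC 2 members passed, where 2950 genes were higher and 1490 lower. In MEP1+Rapamycin against MEP1+CMC 1 passed, where 6114 genes were higher and 1592 lower. In MEP1+Metformin+Rapamycin against MEP1+CMC 2 passed, where 2213 genes were higher and 1903 lower. Against MEP1+Rapamycin 1 passed, where 1204 genes were higher and 4924 lower. With the length trend removed, 1 passed in MEP1+Metformin+Rapamycin against MEP1+Rapamycin, where 351 of 12928 genes were higher and 461 lower. At 1.5-fold, 2 passed for MEP1+Metformin and 3 for MEP1+Rapamycin, each against MEP1+CMC, and 18 for MEP1+Metformin+Rapamycin against MEP1+Rapamycin.

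In the transferred libraries against naive control, edgeR's quasi-likelihood test called 1346 genes, against 2606 with library totals, 2361 with the older fit, 3732 with DESeq2's Wald test and 643 to 2842 without 1 library. The 7 members called became 1 with library totals, 18 with the Wald test and 0 to 21 without 1 library. In the MEP1 libraries against No treatment, 175 genes became 390 with no filter, 46 under the stricter filter, 1167 with the Wald test and 73 to 344 without 1 library, and no member was called without 1 library. The metformin term called 16 genes, against 0 with no filter, 2 under the stricter filter and 29, with 4 members, by the Wald test. The rapamycin term called 30 genes, against 19 with library totals, 19 with TMM taken without mitochondrial and ribosomal loci, 0 with no filter, 6 under the stricter filter and 78 by the Wald test. Neither term could be fitted without 1 library, since no residual degrees of freedom remain. Without ribosomal loci in the total, the members held 1.67% of counts in MEP1+Metformin, 2.05% in MEP1+Rapamycin, 1.67% in MEP1+Metformin+Rapamycin, 1.91% in MEP1+CMC, 2.33% in No treatment and 2.10% in naive control. The cause was not tested. Low counts limit Atp5s, mt-Atp8 and the tissue forms.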
